A study of Homo sapiens with 24 samples.

Results

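The Notch ligands DLL1, DLL4, JAG1 and JAG2, the Notch receptors NOTCH1, NOTCH2 and NOTCH3, the Notch target genes HES1 and HEY1, and the vascular guidance receptor ROBO4 were followed through 24 RNA-seq libraries of 2 human cancer cell lines. These 10 genes were taken by symbol from the 39786 genes of the deposited count table. DLL4 and ROBO4 were chosen by their high counts in neratinib-resistant 5637 cells, so their values in every comparison that holds 5637 libraries are given as descriptions without a test. The other 8 genes were listed as ligands, receptors and targets of the same pathway. 5637 is a bladder carcinoma line and OVCAR8 an ovarian carcinoma line. Each was studied as its parental line and as a neratinib-resistant derivative (NR), and each derivative is 1 population, so that resistance and any other difference of that population cannot be told apart. Both states were kept as control or given neratinib, an irreversible inhibitor of the EGFR and HER2 receptor tyrosine kinases, for 24 h, at 600 nM for 5637 and 1 µM for OVCAR8. NR cells had been without drug for 1 week when they were seeded. This made 8 groups of 3 libraries. Dishes were seeded in triplicate and no label says that the 3 came from separate cultures, so p-values measure the spread between these samples, which may be technical.

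Notch receptors are single-pass membrane proteins that are switched on by ligands on a neighbouring cell. Ligand binding opens the receptor to cleavage by ADAM proteases and gamma-secretase, and the freed intracellular domain joins the DNA-binding protein RBPJ at target genes such as HES1, HEY1 and NRARP. DLL4 is known from the tip cells of sprouting blood vessels, where it is induced by VEGF signalling, and ROBO4 is an endothelial member of the family of Slit receptors that acts in vessel stability. In stratified epithelia, including urothelium, Notch receptors and Jagged ligands act in cell fate and differentiation.

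The libraries held between 23849832 and 48486296 counts. In 5637, all 10 fixed epithelial markers were above 1 CPM (the usual unit of counts scaled by the library total) in every group, with a summed level of 13700 to 14500 CPM in parental control libraries and 5450 to 5890 CPM in NR control libraries. OVCAR8 held PAX8, a marker of Müllerian epithelium, at a mean of 145 CPM in parental control cells, but MUC16, MECOM and SOX17, also markers of ovarian carcinoma, were below 0.1 CPM there. The library OVCAR8 parental control replicate 2 stood apart from its group. Genes over 8 kb took 14.1% of its counts and 20.4% to 21.2% of those of the other OVCAR8 libraries, and the biological coefficient of variation of the OVCAR8 fit was 13% with it and 4.37% without it. Some OVCAR8 results are therefore also given without this library. Other calls that differ without it are given only by name or as counts of genes, further below. Because these are bulk samples, a higher share of cells that express a gene and more RNA per cell cannot be told apart.

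The stretch of 250 bases before the transcription start is shown for the target gene HES1 and for DLL4 and ROBO4, because RBPJ is the DNA-binding partner of the receptors, and ETS factors are known regulators of genes of endothelial cells. The sequences are from RefSeq on GRCh38.p14, where 8 of the 10 genes matched an entry. Capitals mark the RBPJ core TGGGAA in HES1 and the ETS core AGGAAG in DLL4 and ROBO4. HES1 lies at chr3:194135898-194136147 on the plus strand, DLL4 at chr15:40929090-40929339 on the plus strand, and ROBO4 at chr11:124897866-124898115 on the minus strand.
HES1: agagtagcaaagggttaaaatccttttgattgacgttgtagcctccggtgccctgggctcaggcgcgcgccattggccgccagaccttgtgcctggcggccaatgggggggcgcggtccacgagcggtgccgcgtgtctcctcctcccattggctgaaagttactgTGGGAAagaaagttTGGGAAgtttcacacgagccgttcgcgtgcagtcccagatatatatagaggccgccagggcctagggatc
DLL4: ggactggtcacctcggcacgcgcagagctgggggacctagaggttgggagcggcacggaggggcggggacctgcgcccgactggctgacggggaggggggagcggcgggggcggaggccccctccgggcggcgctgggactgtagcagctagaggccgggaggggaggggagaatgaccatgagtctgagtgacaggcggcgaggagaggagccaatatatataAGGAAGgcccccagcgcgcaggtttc
ROBO4: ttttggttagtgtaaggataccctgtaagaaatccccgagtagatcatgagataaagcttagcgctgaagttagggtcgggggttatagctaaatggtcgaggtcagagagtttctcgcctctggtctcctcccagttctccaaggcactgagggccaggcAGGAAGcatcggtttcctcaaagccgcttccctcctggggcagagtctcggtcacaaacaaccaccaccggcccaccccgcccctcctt

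HES1 held the RBPJ core on the plus strand at 84 and at 70 bases before the start, and no other of the 8 matched genes held it on either strand. Of 35116 RefSeq promoters of the same length, 20.8% held TGGGAA on either strand and 2.9% held it at least 2 times. The ETS form AGGAAG lay 26 bases before the start of DLL4 and 89 bases before that of ROBO4, and its reverse complement lay 107 bases before that of NOTCH2. AGGAAG is common, with a match in 28.7% of the promoters. The AP-1 letters TGANTCA, found in 6.57% of the promoters, were not in the window of any of the 8. A match describes letters only, and binding was not measured.

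DLL4 (ENSG00000128917.5, hg19 chr15:41221538-41231237), the Delta ligand known from vessel sprouts, was barely counted in parental 5637 cells. Control replicates 1 to 3 held 0.149, 0.123 and 0.0471 CPM (6, 5 and 2 counts), and neratinib replicates held 0.108, 0.199 and 0.210 CPM (4, 8 and 9 counts). In NR cells the control replicates held 22.9, 20.6 and 24.5 CPM (865, 718 and 1000 counts) and the neratinib replicates 11.2, 10.0 and 10.2 CPM. Every NR library was thus far above every parental library, and NR libraries on neratinib lay below NR control libraries without overlap. From the summed counts, NR cells held 216 times the parental level in control medium, with an exact Poisson 95% interval of 126 to 406, and 59.9 times on neratinib, with an interval of 39 to 97.2. These intervals cover counting error only. The fitted log2 fold change of DLL4 on neratinib was -1.24 ± 0.11 in NR cells (SE, n = 3 against 3). In parental cells it was 0.61 ± 0.45, on 13 control and 21 neratinib counts, where a difference was hardly detectable at this depth. OVCAR8 libraries held 0.461 to 1.00 CPM of DLL4 in all 4 groups, and none of the within-line OVCAR8 comparisons called it.

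**Figure D1:**
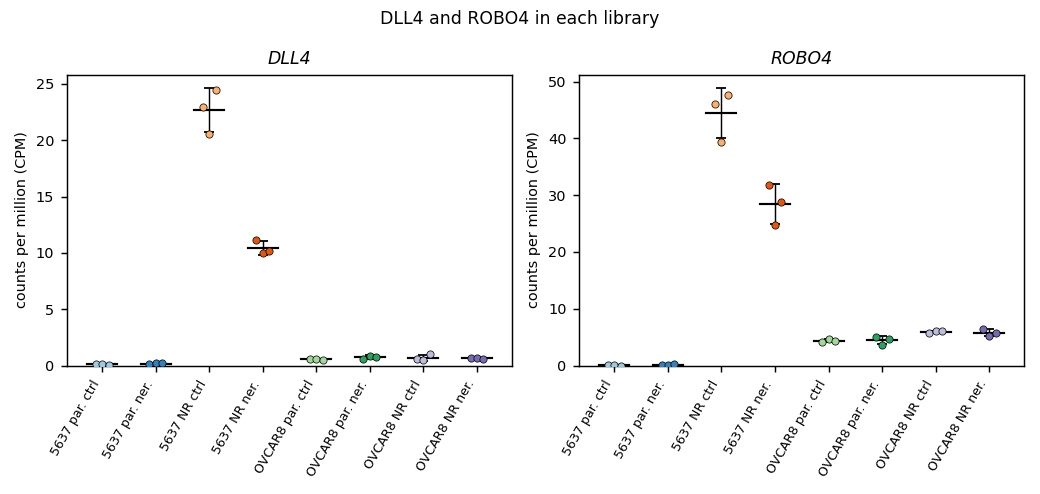
CPM of DLL4 (left) and ROBO4 (right) in each of the 24 libraries, by group (par., parental; ctrl, control; ner., neratinib), with points for libraries, a long bar for the mean and whiskers for the SD. Both genes are near 0 in parental 5637 and highest in NR control 5637, at 20.6 to 24.5 CPM for DLL4 and 39.4 to 47.7 CPM for ROBO4, and lower in NR 5637 on neratinib.

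DLL1 (ENSG00000198719.7, hg19 chr6:170591294-170599561), the other Delta ligand among the 10 genes, moved differently from DLL4. Parental 5637 control libraries held 52.2, 52.7 and 54.1 CPM of DLL1, and those on neratinib 41.6, 38.9 and 35.5 CPM. NR control libraries held 43.6, 45.7 and 51.5 CPM, and those on neratinib 62.8, 44.5 and 57.5 CPM. Parental libraries fell on the drug without overlap, while NR libraries overlapped. The fitted change on neratinib was -0.56 ± 0.11 in parental cells (edgeR adjusted p = 5.8e-04) and 0.10 ± 0.11 in NR cells (edgeR adjusted p = 0.5). The difference between these 2 drug effects was 0.66 ± 0.15 (edgeR adjusted p = 0.0092). On neratinib, DLL1 was therefore higher in NR than in parental cells, by 0.47 ± 0.11 (edgeR adjusted p = 0.0016), whereas in control medium the difference of -0.19 ± 0.11 did not pass (edgeR adjusted p = 0.15). OVCAR8 held only 0.226 to 0.783 CPM of DLL1, with 8 to 32 counts a library and no call.

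JAG1 (ENSG00000101384.7, hg19 chr20:10618332-10654694), the Jagged ligand with the highest level per length in 5637, did not differ detectably between the states without drug, and its response to neratinib differed between them. Parental 5637 control libraries held 321, 327 and 319.9 CPM of JAG1, and NR control libraries 326, 324 and 320.0 CPM. On neratinib, parental libraries held 354, 351 and 356 CPM and NR libraries 227, 225 and 214 CPM. In control medium the NR and parental libraries overlapped, and on neratinib the NR libraries all lay below the rest. The change of NR against parental cells was -0.01 ± 0.05 in control medium (edgeR adjusted p = 0.85) and -0.70 ± 0.05 on neratinib (edgeR adjusted p = 5.2e-09). Neratinib lowered JAG1 by -0.67 ± 0.05 in NR cells (edgeR adjusted p = 2.9e-08), and its change in parental cells was 0.02 ± 0.05 (edgeR adjusted p = 0.7), a difference of -0.69 ± 0.07 (edgeR adjusted p = 5.3e-06). Scaled by library size alone, parental JAG1 passed as higher on neratinib, by 0.13. That scaling also moved the median of all genes in the comparison from 0.02 to 0.13.

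In OVCAR8, JAG1 was scarce and rose on the drug in parental cells. Parental control libraries held 3.03, 2.15 and 3.40 CPM, and parental neratinib libraries 6.33, 5.73 and 6.31 CPM. NR libraries held 4.99, 5.24 and 5.69 CPM in control medium and 6.61, 5.11 and 5.27 CPM on neratinib. Parental control libraries were the low group, with no overlap with the other 3. Neratinib raised JAG1 in parental OVCAR8 by 1.00 ± 0.15 (edgeR adjusted p = 3.5e-04) and changed it by 0.07 ± 0.14 in NR cells (edgeR adjusted p = 0.9), with a difference between the drug effects of -0.93 ± 0.20 (edgeR adjusted p = 0.016). NR control cells held more JAG1 than parental control cells, by 0.85 ± 0.15 (edgeR adjusted p = 0.0033). Between the lines, the drug effect in parental cells differed by 0.96 ± 0.14 (OVCAR8 minus 5637, edgeR adjusted p = 5.4e-05). The drug was given at different doses in the 2 lines, so line and dose cannot be told apart.

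JAG2 (ENSG00000184916.4, hg19 chr14:105607318-105635161), the other Jagged ligand, was low in resistant 5637. Parental control libraries held 237, 232 and 243 CPM of JAG2 and parental neratinib libraries 277, 245 and 208 CPM. NR control libraries held 62.5, 64.8 and 70.2 CPM and NR neratinib libraries 105, 64.8 and 88.2 CPM. No NR library reached a parental one. JAG2 fell in NR against parental cells by -1.87 ± 0.14 in control medium (edgeR adjusted p = 1.6e-08) and by -1.53 ± 0.14 on neratinib (edgeR adjusted p = 1.4e-07). OVCAR8 libraries held 67.6 to 110.0 CPM, and NR and parental OVCAR8 control cells differed by 0.10 ± 0.12 (edgeR adjusted p = 0.59). The change from parental to NR control cells differed between the lines by 1.95 ± 0.20 (OVCAR8 minus 5637, edgeR adjusted p = 4.6e-08).

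Levels can be compared between genes per length, as CPM per kb of the deposited gene length. Over the 5 ligands including DLL3, the summed level in 5637 was 105 ± 0.626 CPM per kb in parental control cells (SD, n = 3) and 81.5 ± 1.76 in NR control cells. In parental control cells JAG1 made 48.8% of this sum, JAG2 35.3%, DLL1 15.9% and DLL4 0.0215%. In NR control cells JAG1 made 63.1%, DLL1 18.1%, JAG2 12.6% and DLL4 5.89%. Per length, JAG2 lost more than DLL4 gained, and DLL4 was the fourth ligand by level in NR control cells. On neratinib, NR cells held 51.9% JAG1, 25.2% DLL1, 19.5% JAG2 and 3.24% DLL4. In OVCAR8, JAG2 made 79.5% to 80.2% of the ligand sum and DLL3 12% to 16.3% in the 4 groups.

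**Figure D2:**
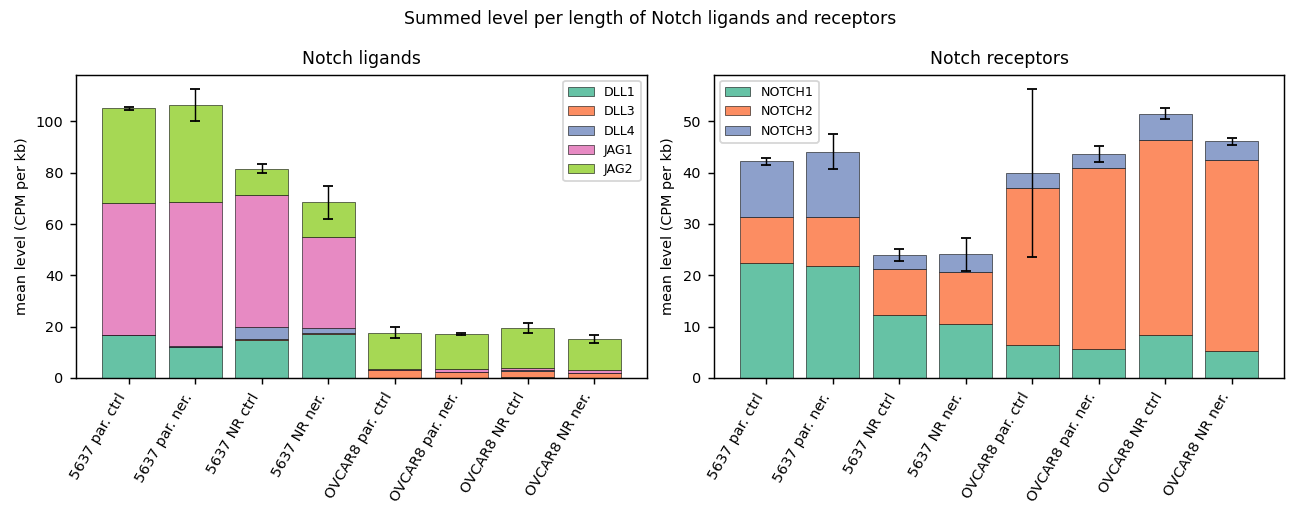
Stacked mean level per length (CPM per kb) of the Notch ligands (left) and receptors (right) in the 8 groups, with whiskers for the SD of the sum over 3 libraries. The 5637 ligand sum is 105 in parental control and 81.5 in NR control cells, and the receptor sum 42.2 and 23.9, while OVCAR8 holds mostly JAG2 and NOTCH2.

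Of the receptors, NOTCH3 (ENSG00000074181.4, hg19 chr19:15270444-15311792) had the largest fall in resistant 5637 among the 8 genes tested. Parental control libraries held 92.1, 96.6 and 98.2 CPM of NOTCH3 and parental neratinib libraries 121, 113 and 103 CPM. NR control libraries held 21.6, 23.5 and 26.1 CPM and NR neratinib libraries 37.7, 26.8 and 27.9 CPM. All NR libraries were below 38 CPM and all parental ones above 92 CPM. The fall was -2.02 ± 0.12 in control medium (edgeR adjusted p = 9.8e-10) and -1.90 ± 0.12 on neratinib (edgeR adjusted p = 1.9e-09).

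In OVCAR8 the difference in NOTCH3 had the other sign. Parental control libraries held 28.2, 17.1 and 30.4 CPM of NOTCH3, the 17.1 being replicate 2, and NR control libraries 47.8, 45.8 and 42.4 CPM. On neratinib, parental libraries held 24.0, 23.1 and 23.1 CPM and NR libraries 33.9, 31.3 and 31.8 CPM. NR libraries were higher under both treatments without overlap. The NR change was 0.81 ± 0.14 in control medium (edgeR adjusted p = 0.0026) and 0.63 without replicate 2 (edgeR adjusted p = 7.4e-08). With only the 6 control libraries in the fit the call was lost (edgeR adjusted p = 0.073). On neratinib the change was 0.50 ± 0.14 (edgeR adjusted p = 0.015), which no longer passed when parental neratinib replicate 2 was left out (edgeR adjusted p = 0.054), or NR neratinib replicate 1 (edgeR adjusted p = 0.056). The NR change in control medium differed between the lines by 2.82 ± 0.20 (OVCAR8 minus 5637, edgeR adjusted p = 9.7e-11).

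NOTCH1 (ENSG00000148400.9, hg19 chr9:139388896-139440314) also fell in resistant 5637. Parental control libraries held 219.7, 219 and 226 CPM and NR control libraries 113, 116 and 131 CPM. On neratinib, parental libraries held 239, 216 and 190.2 CPM and NR libraries 128, 83.7 and 101 CPM. The states did not overlap under either treatment, and replicate 1 was the highest of the neratinib libraries in each state, as it was for JAG2 and NOTCH3. The fall was -0.90 ± 0.13 in control medium (edgeR adjusted p = 1.7e-05) and -1.08 ± 0.13 on neratinib (edgeR adjusted p = 2.5e-06). A drug effect of -0.33 ± 0.13 in NR cells passed narrowly (edgeR adjusted p = 0.049) and was lost in 10 of 14 alternative settings. In OVCAR8, NOTCH1 levels were 39.7 to 78.4 CPM in parental control, 53.6 to 56.9 CPM in parental neratinib, 77.9 to 93.8 CPM in NR control and 45.6 to 56.3 CPM in NR neratinib libraries. The NR control libraries all exceeded the NR neratinib libraries, yet the drug effect of -0.70 ± 0.17 in NR cells did not pass (edgeR adjusted p = 0.071). Without parental control replicate 2 it passed at -0.72 (edgeR adjusted p = 2.7e-07). The NR change in control medium differed between the lines by 1.25 ± 0.23 (OVCAR8 minus 5637, edgeR adjusted p = 1.4e-04).

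NOTCH2 (ENSG00000134250.13, hg19 chr1:120454176-120612240) was the receptor with no call in any 5637 comparison. Its counts are uncertain, because near-identical NOTCH2NL copies share its sequence. The 12 libraries of 5637 held 145.0 to 175 CPM of NOTCH2. Its NR change in control medium was 0.01 ± 0.06 (edgeR adjusted p = 0.84), with parental and NR libraries overlapping. In OVCAR8 control medium, parental libraries held 660.3, 252 and 633 CPM, the 252 being replicate 2, and all other OVCAR8 libraries held 566 to 649 CPM. The fitted drug effect in parental OVCAR8 was 0.13 ± 0.23 (edgeR adjusted p = 0.7), and without replicate 2 it turned to -0.17 (edgeR adjusted p = 9.4e-04).

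Per length, the 3 receptors summed to 42.2 ± 0.686 CPM per kb in parental 5637 control cells and 23.9 ± 1.13 in NR control cells (SD, n = 3). NOTCH1 made 53.2% of the sum in parental control cells and 50.8% in NR control cells. NOTCH2 rose as a share from 21% to 37.9%, with an almost equal level, and NOTCH3 fell as a share from 25.8% to 11.3%. In OVCAR8, NOTCH2 made 73.6% to 81% of the receptor sum. NOTCH4 was not analysed here.

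HES1 (ENSG00000114315.3, hg19 chr3:193853934-193856521), a transcriptional repressor and Notch target whose promoter holds the pair of RBPJ cores printed above, was lower in resistant cells of both lines. In 5637, parental control libraries held 51.0, 51.8 and 53.0 CPM of HES1 and NR control libraries 31.0, 30.4 and 30.2 CPM. On neratinib, parental libraries held 54.8, 53.7 and 55.7 CPM and NR libraries 40.3, 34.6 and 37.6 CPM. NR and parental libraries did not overlap. The fall was -0.78 ± 0.07 in control medium (edgeR adjusted p = 5.3e-08) and -0.58 ± 0.06 on neratinib (edgeR adjusted p = 1.5e-06). A rise of 0.17 ± 0.07 on neratinib in NR cells (edgeR adjusted p = 0.049) was lost in 9 of 14 alternative settings.

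In OVCAR8, HES1 was scarcer. Parental control libraries held 4.15, 6.001 and 3.99 CPM and NR control libraries 2.70, 1.93 and 2.21 CPM. On neratinib, parental libraries held 5.34, 5.61 and 5.82 CPM and NR libraries 3.49, 3.05 and 3.24 CPM. Every NR library lay below every parental library. The NR change was -1.08 ± 0.20 in control medium (edgeR adjusted p = 0.0042), -0.81 without replicate 2 of the parental controls (edgeR adjusted p = 1.8e-04), and not called with the 6 control libraries alone (edgeR adjusted p = 0.082). On neratinib it was -0.74 ± 0.19 (edgeR adjusted p = 0.0097). The NR change in control medium differed between the lines by -0.31 ± 0.19 (edgeR adjusted p = 0.24), so a difference was not shown.

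HEY1 (ENSG00000164683.12, hg19 chr8:80676245-80680098), a Notch and BMP target of the same protein family as HES1, followed the drug. In 5637, parental libraries held 0.572, 0.296 and 0.447 CPM in control medium and 1.62, 2.54 and 2.06 CPM on neratinib. NR libraries held 0.504, 0.775 and 0.783 CPM in control medium and 2.33, 2.90 and 2.57 CPM on neratinib. Neratinib libraries of both states were above all control libraries, with 12 to 32 counts in each control library. The rise was 2.13 ± 0.26 in parental cells (edgeR adjusted p = 6.5e-06) and 1.79 ± 0.24 in NR cells (edgeR adjusted p = 2.6e-05). The difference between the drug effects was -0.35 ± 0.36 (edgeR adjusted p = 0.61).

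In OVCAR8, HEY1 rose on the drug in parental cells, and the response of NR cells differed. Parental libraries held 1.44, 1.22 and 1.35 CPM in control medium and 5.45, 5.75 and 5.38 CPM on neratinib. NR libraries held 1.56, 1.38 and 1.03 CPM in control medium and 1.45, 1.08 and 1.72 CPM on neratinib. Parental neratinib libraries were the 3 high ones, and the other 9 overlapped. The drug effect was 1.95 ± 0.18 in parental cells (edgeR adjusted p = 1.2e-05) and 0.08 ± 0.19 in NR cells (edgeR adjusted p = 0.93). The difference between them was -1.87 ± 0.26 (edgeR adjusted p = 0.002), and on neratinib NR cells held less HEY1 than parental cells, by -1.93 ± 0.17 (edgeR adjusted p = 9.7e-06). On neratinib, both target genes were thus lower in NR than in parental OVCAR8.

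**Figure D3:**
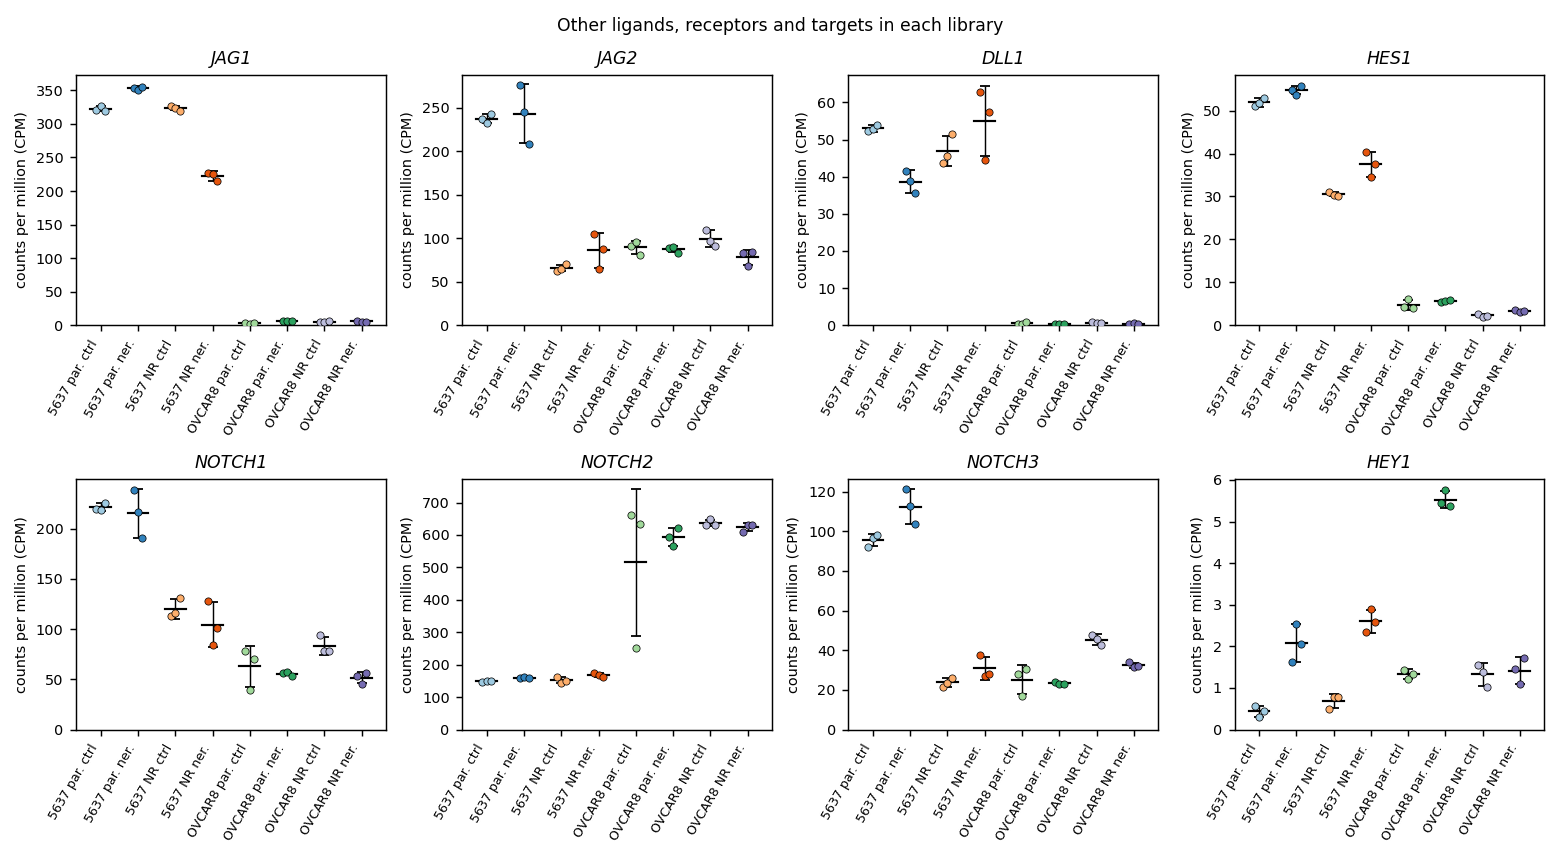
CPM of the 8 other genes in each of the 24 libraries, by group (par., parental; ctrl, control; ner., neratinib), with points for libraries, a long bar for the mean and whiskers for the SD. JAG2, NOTCH1, NOTCH3 and HES1 are lower in NR than in parental 5637, JAG1 is lower in NR 5637 on neratinib than in the other 5637 groups, and 1 OVCAR8 parental control library is low for NOTCH1, NOTCH2 and NOTCH3.

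ROBO4 (ENSG00000154133.10, hg19 chr11:124753587-124768396), the endothelial receptor of the Robo family, had the pattern of DLL4 in 5637 with a larger difference. Parental control replicates held 0.124, 0.0247 and 0 CPM (5, 1 and 0 counts; in replicate 3 a count of 3 would be 0.0706 CPM), and parental neratinib replicates 0.0811, 0.0249 and 0.187 CPM (3, 1 and 8 counts). NR control replicates held 46.1, 39.4 and 47.7 CPM and NR neratinib replicates 31.8, 24.7 and 28.8 CPM. All NR libraries lay far above the parental ones, and NR neratinib libraries lay below NR control libraries. From the summed counts, NR cells held 917 times the parental level in control medium (exact Poisson 95% interval 421 to 2500) and 286 times on neratinib (164 to 555). The fitted log2 fold change of ROBO4 on neratinib in NR cells was -0.77 ± 0.14 (SE), given like that of DLL4 without a test.

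Unlike DLL4, ROBO4 was above 3 CPM in every OVCAR8 library. Parental libraries held 4.20, 4.67 and 4.33 CPM in control medium and 5.06, 3.69 and 4.69 CPM on neratinib. NR libraries held 5.78, 5.996 and 6.08 CPM in control medium and 6.42, 5.22 and 5.80 CPM on neratinib. NR libraries were higher by a small margin under each treatment, without overlap. The change on neratinib was 0.41 ± 0.14 (edgeR adjusted p = 0.038), lost in 7 of 15 alternative settings. In control medium it was 0.39 ± 0.14 and did not pass (edgeR adjusted p = 0.1), but passed without parental control replicate 2 at 0.48 (edgeR adjusted p = 0.012).

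Counted over comparisons, the genes with a call were set beside the share of all tested genes with a call. All 10 passed the filter on low counts, DLL4 and ROBO4 in 5637 only through the NR libraries. For NR against parental 5637, 4 of the 8 other genes were lower and 0 higher in control medium. Of all 18307 genes tested there, 56.5% were called, 28% as lower and 28.4% as higher. On neratinib, 5 of the 8 were lower and 1 higher, against 58% of all genes called, 29.2% as lower and 28.8% as higher. For neratinib in 5637, 2 of the 8 were called in parental cells (47.3% of all genes), DLL1 as lower and HEY1 as higher. In NR cells 4 of the 8 were called (39.5% of all genes), and 2 with any 1 of the 3 NR control libraries left out. Of the 8, 2 differed in drug effect between the states, against 13.9% of all genes. The share among these genes was below that of all genes for the drug in parental cells and for the states in control medium, and above it for the other 3 comparisons, where a gene or 2 decide the order. No share was tested against the background, and nothing particular to these genes is read from it.

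In OVCAR8, 2 of 10 were called for neratinib in parental cells (32.5% of 18072 genes), and 6 without parental control replicate 2. For neratinib in NR cells edgeR called 0 of 10 (1.39% of all genes), with 4 at an unadjusted p under 0.05, and DESeq2 called 2. Without parental control replicate 2 there were 4, with JAG2, NOTCH1 and NOTCH3 lower and HES1 higher. For NR against parental cells, 3 of 10 were called in control medium (9.84%) and 4 on neratinib (31%). The drug effect differed between the states for 2 of 10 (8.83%). Between the lines in parental control medium, all 8 genes other than DLL4 and ROBO4 were called, against 72% of 20250 genes, with DLL1 (-6.79 ± 0.21) and JAG1 (-6.82 ± 0.12) far lower in OVCAR8 and NOTCH2 higher (1.76 ± 0.18; OVCAR8 minus 5637, edgeR adjusted p = 1.2e-18, 7.2e-23 and 4.4e-09). The drug effect in parental cells differed between the lines for 1 of the 8 (10.3%), and the NR change in control medium for 4 of 8 (32.9%), namely JAG1, JAG2, NOTCH1 and NOTCH3. JAG1 differed there by 0.84 ± 0.14 (edgeR adjusted p = 6.4e-05).

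**Figure D4:**
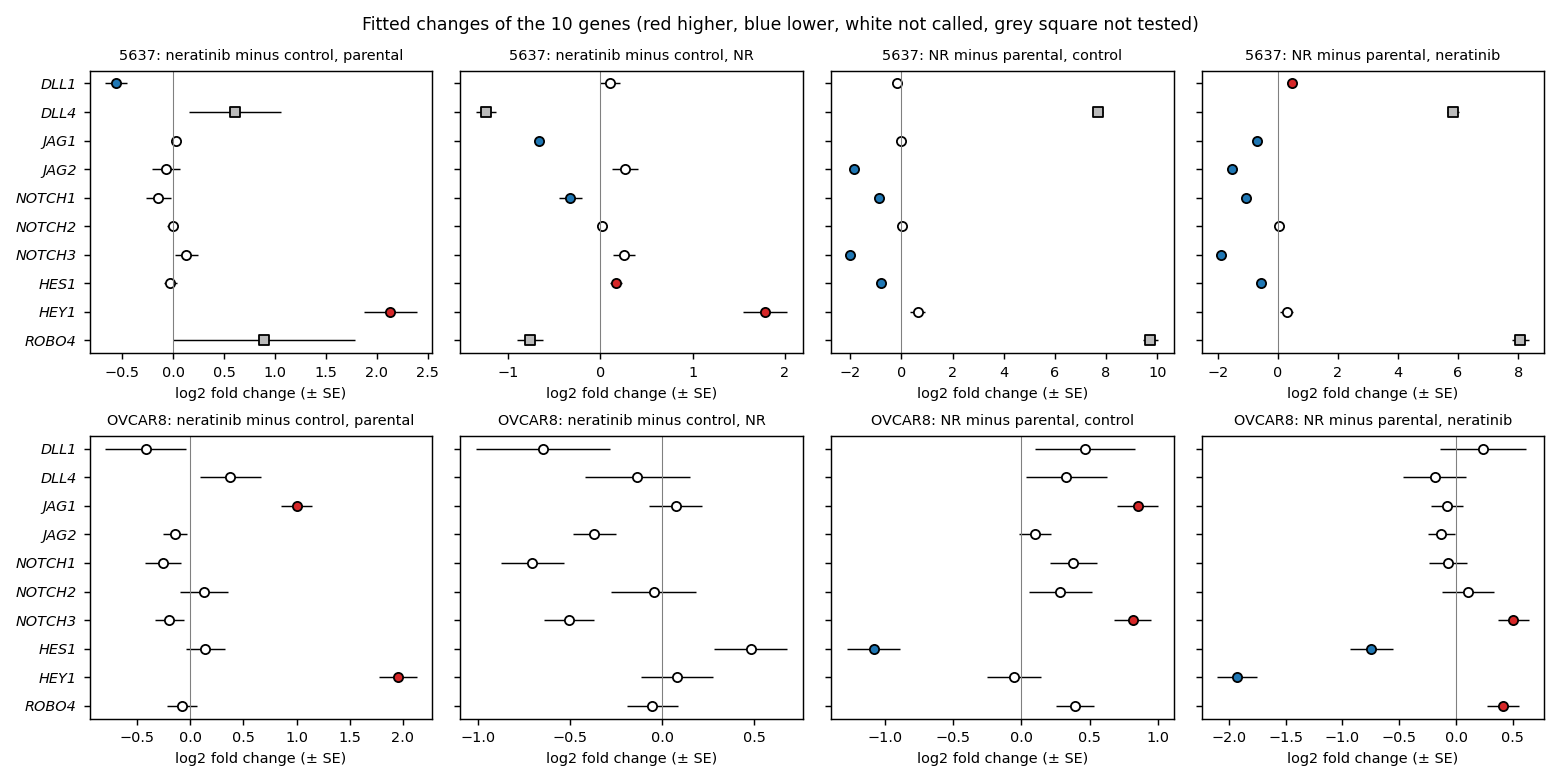
Fitted log2 fold changes of the 10 genes with SE in the 8 comparisons within a line, with red for higher, blue for lower, white for no call at an edgeR adjusted p of 0.05 and grey squares for DLL4 and ROBO4 in 5637, where they were not tested; each panel has its own axis. NOTCH3 and JAG2 show the largest falls in NR 5637, and HEY1 rises on neratinib in both states of 5637 and in parental OVCAR8.

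Beyond the 10 genes, 44 other genes of the fixed Notch lists were tested in 5637, and 12 were higher and 18 lower in NR than in parental control cells. Of all genes tested there, 28.4% were higher and 28% lower, and no list was tested against these shares. Of 6 tested targets, HES1 and HEY1 included, 5 were lower and 0 higher, with a median log2 change of -0.67, where the median of all genes was 0.00. NRARP, a feedback inhibitor of Notch that is also its target, fell by -1.58 (edgeR adjusted p = 1.2e-09), from 20.9, 21.5 and 24.9 CPM in parental to 8.24, 7.14 and 7.34 CPM in NR control libraries. HES7 fell by -0.94 (edgeR adjusted p = 0.0013). Of 8 genes of receptor cleavage, 5 were lower and 1 higher, among them the gamma-secretase subunit APH1B at -2.82 (edgeR adjusted p = 2.1e-08) and the protease ADAM10 at -0.69 (edgeR adjusted p = 1.0e-06). Of 6 genes that glycosylate the receptors, 2 were higher and 1 lower, and the one that fell was the Fringe enzyme MFNG at -2.45 (edgeR adjusted p = 1.9e-08). The list of trafficking and ubiquitination held NEURL, a ubiquitin ligase of Notch ligands, which rose by 3.43 (edgeR adjusted p = 6.9e-10), with 4 of 12 higher and 3 lower. Of 13 genes of the nuclear complex, 4 were higher and 5 lower, with RBPJ at 0.47 (edgeR adjusted p = 0.005) and the acetyltransferase gene EP300 at -0.40 (edgeR adjusted p = 1.6e-04).

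On neratinib in parental 5637, 15 of the 44 rose and 10 fell, where 47.3% of all genes were called. Cleavage genes held 5 of the rises among 8 tested, including APH1B at 0.92 (edgeR adjusted p = 1.5e-04) and nicastrin, NCSTN, at 0.37 (edgeR adjusted p = 8.3e-05). The protease genes ADAM10, at -0.46 (edgeR adjusted p = 9.8e-05), and FURIN, at -0.42 (edgeR adjusted p = 0.0011), fell. In NR cells 9 rose and 6 fell (39.5% of all genes called), with NCSTN at 0.34 (edgeR adjusted p = 2.6e-04) and the HES family gene HES2 at -0.78 (edgeR adjusted p = 5.0e-06). In OVCAR8, 9 of 47 rose and 3 fell in parental cells on neratinib, where 32.5% of all genes were called. In NR cells edgeR called 0 of 47 (1.39% of all genes), and DESeq2 called 1. Without parental control replicate 2 these counts were 25 and 15 genes in all. In parental OVCAR8 the ubiquitin ligase gene DTX4 rose by 1.10 (edgeR adjusted p = 8.6e-05) and the coactivator gene MAML3 by 1.17 (edgeR adjusted p = 0.0028). NR and parental OVCAR8 control cells differed for 2 of 47 (9.84% of all genes), or 13 without that library. NEURL was the largest named fall at -1.499 (edgeR adjusted p = 3.8e-04), with the other sign than in 5637.

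Guidance genes beside ROBO4 moved in both directions in resistant 5637, with 15 of 40 higher and 15 lower in control medium. Of all genes in that comparison, 28.4% were higher and 28% lower, and no list was tested against these shares. SLIT2, a ligand of Robo receptors, rose by 2.30 (edgeR adjusted p = 3.1e-12) and the receptor gene ROBO3 by 1.95 (edgeR adjusted p = 5.5e-09), while SLIT3 fell by -2.05 (edgeR adjusted p = 4.0e-10) and ROBO1 by -0.88 (edgeR adjusted p = 7.3e-09). The Netrin and UNC5 list held 5 lower and 0 higher of 6 tested, with a median of -1.35. UNC5B, a Netrin receptor known from vessels, held 51.2, 50.4 and 51.3 CPM in parental control libraries and 2.97, 2.61 and 3.40 CPM in NR control libraries, a fall of -4.10 (edgeR adjusted p = 1.6e-13). PLXNA4, a semaphorin co-receptor, went from 0.249, 0.444 and 0.424 CPM to 19.8, 16.5 and 18.6 CPM, a rise of 5.59. It was lower on neratinib in NR cells, by -2.25. PLXNA4 may have passed the filter on low counts only through the NR libraries. Its changes are therefore given without a test, and the counts that hold it lean towards rises in NR cells. Of 7 VEGF ligands and receptors, 6 were higher and 0 lower in NR control cells, with a median of 1.81. In that list KDR and FLT4 were scarce, with means of at most 1.64 and 0.272 CPM in any 5637 group. Both may have passed the filter on low counts only through the NR libraries, so this count and median lean towards rises. Of 12 class 3 semaphorins, neuropilins and plexins, 5 were higher and 2 lower, and of 7 ephrin-B and EPHB genes 2 were higher and 5 lower. The ligand gene VEGFA held 23.9, 25.9 and 25.7 CPM in parental and 138, 123 and 133 CPM in NR control libraries, a rise of 2.36 (edgeR adjusted p = 8.1e-13). The receptor gene FLT1 held 3.16, 3.01 and 3.11 CPM in parental and 26.6, 28.6 and 27.6 CPM in NR control libraries, a rise of 3.14 (edgeR adjusted p = 7.2e-13). On neratinib, 5 of the 7 VEGF ligands and receptors fell in NR 5637 (39.5% of all genes called), with FLT1 at -0.92 (edgeR adjusted p = 7.6e-07). KDR, counted among the 5, was at -2.01. Its fall is given without a test, because it may have passed the filter on low counts only through the NR libraries. These comparisons share libraries with those of DLL4 and ROBO4.

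In OVCAR8, 6 of 40 guidance genes were higher and 7 lower in NR control cells, where 9.84% of all genes were called in either direction. These shares were not tested against each other. The neuropilin gene NRP2, which encodes a co-receptor for semaphorins and VEGF, rose by 2.03 (edgeR adjusted p = 3.3e-06) and the plexin gene PLXND1 fell by -1.11 (edgeR adjusted p = 1.1e-05). VEGFA rose on neratinib in parental OVCAR8 by 1.87 (edgeR adjusted p = 5.3e-08) and in NR OVCAR8 by 0.54 (edgeR adjusted p = 0.0073). It also rose in parental 5637, by 1.36 (edgeR adjusted p = 1.3e-09). In NR 5637, VEGFA fell on neratinib by -0.85 (edgeR adjusted p = 2.4e-07), a difference between the drug effects of -2.21 (edgeR adjusted p = 3.0e-09).

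DLL4 and ROBO4 are known from endothelial cells, so 15 other endothelial markers were read in the same libraries. Their summed level in 5637 was 6.94 to 7.79 CPM in parental control, 4.97 to 5.86 CPM in parental neratinib, 47.9 to 52.2 CPM in NR control and 29.7 to 34.9 CPM in NR neratinib libraries. The sum was thus higher in NR than in parental cells, and lower on neratinib than in control medium in both states. In NR control cells it was mostly FLT1 and EGFL7, with means of 27.6 and 15.9 CPM. DLL4 and ROBO4 were likewise higher in NR cells and lower there on neratinib, but their means were not lower on neratinib in parental cells, where both were near 0. In NR against parental control cells, 7 of the 15 passed the filter on low counts. Of these, 5 were higher (28.4% of all genes): EGFL7 (3.47), ESAM (3.31), TIE1 (3.30), KDR (3.23) and FLT1 (3.14). For EGFL7 and FLT1 the edgeR adjusted p was 7.0e-05 or less. ESAM, TIE1 and KDR had NR control means of only 2.22, 0.678 and 1.64 CPM and lower parental levels. They may have passed the filter only through the NR libraries, so their rises are given without a test and the count of 5 leans towards rises. The transcription factor gene ERG was lower at -1.32 (edgeR adjusted p = 5.3e-04), and VWF was not called at -0.38 (edgeR adjusted p = 0.28). CDH5, which encodes the junction protein VE-cadherin and is a defining endothelial gene, held 0.186, 0.0861 and 0.122 CPM in NR control libraries and 0.199, 0.148 and 0.259 CPM in parental ones. SOX17 was at 0 in all 12 libraries of 5637, and MMRN1 was at 0 in both control groups. In NR control cells, levels of DLL4 and ROBO4 were higher, as were those of the tested genes EGFL7 and FLT1. ESAM, TIE1 and KDR were higher without a test, while ERG fell, VWF was not called and CDH5 stayed below 0.3 CPM. Of the epithelial markers, 8 of 10 were lower in NR control cells (28% of all genes), with KRT5 at -2.87 (edgeR adjusted p = 4.9e-15) and the basal cell factor TP63 at -1.97 (edgeR adjusted p = 1.0e-13). Means of EPCAM and PPARG were higher there, at 275 and 139 CPM, against at most 201 and 92.6 CPM in either parental 5637 group. The part of this epithelial change in the results on the Notch genes was not tested. Of 7 mural and fibroblast markers 2 were higher and 3 lower, and of 2 leukocyte markers 1 was higher and 1 lower. In OVCAR8 the summed endothelial marker level was 79.1 to 174 CPM, mostly EGFL7.

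**Figure D5:**
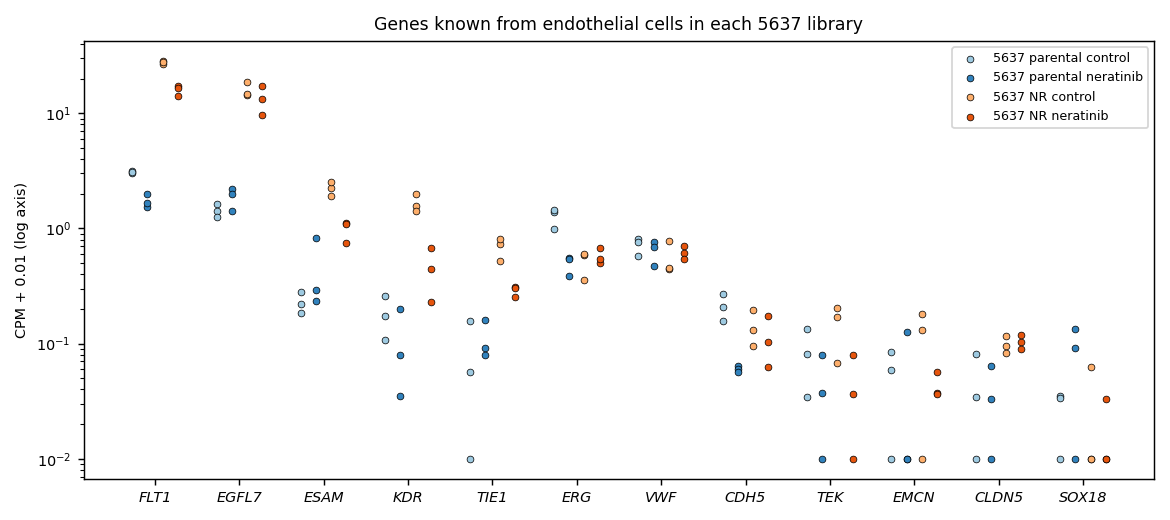
CPM plus 0.01, on a log axis, of 12 endothelial marker genes in each of the 12 libraries of 5637, coloured by group. FLT1, EGFL7, ESAM, KDR and TIE1 are higher in NR control than in parental control libraries, whereas CDH5, TEK, EMCN, CLDN5 and SOX18 stay below 0.3 CPM in every group.

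Genes with levels most like those of DLL4 and ROBO4 were named by Pearson correlation of log2(CPM + 0.5) over the 24 libraries, among 13896 genes. The 5 most like DLL4 were GABBR2 (0.988), KCNN3 (0.981), CASP14 (0.975), JPH3 (0.974) and SLC1A6 (0.972). GABBR2, a GABA-B receptor subunit gene, had means of 0.203 CPM in parental and 18.8 CPM in NR control 5637, and 7.92 CPM in NR 5637 on neratinib. The 5 most like ROBO4 were LOXL2 (0.990), OXGR1 (0.983), COL6A1 (0.982), APLP1 (0.955) and MXRA7 (0.954). LOXL2, a collagen cross-linking enzyme gene, had means of 97.6 CPM in parental and 624 CPM in NR control 5637 and 249 to 312 CPM in the OVCAR8 groups. DLL4 and ROBO4 correlated with each other at 0.874 over 24 libraries, at 0.995 over the 12 of 5637 and at -0.02 over the 12 of OVCAR8. These coefficients are descriptions, since the libraries fall into groups and the first 2 rest on the difference by which the genes were chosen.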

How the data were processed

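The 10 genes and the gene lists were chosen with earlier results of these data known. The deposited table gives the authors' whole-number read counts per gene, with gene length, hg19 coordinates and symbol. Poly(A) RNA was made into stranded libraries and read in pairs, per the labels' protocols. The submitters' processing notes name hg19 and list the tools DESeq2 1.18.1, featureCounts 1.15.2, STAR 2.5.3a and FastQC, in no stated order. Annotation release and the strand setting of counting are not given in the sources used here, so overlapping antisense genes cannot be told apart. JAG1 has 2 entries, and the one on a chromosome was used.

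A line's comparisons were fitted on its 12 libraries, leaving 8 residual degrees of freedom, and comparisons of the lines on 24 libraries. In R 4.3.3, edgeR 4.0.16 gave quasi-likelihood F-tests after filterByExpr and TMM scaling. A gene was called at a Benjamini-Hochberg adjusted p under 0.05, the adjustment covering every gene in the fit. DLL4 and ROBO4 got no test in comparisons with 5637 libraries, on which they were chosen. The tests were first run on simulated data. Printed CPM use plain library totals, so ratios of them can differ from fitted changes, which use TMM. Alternatives were DESeq2 1.42.0, its size factors, no scaling factors, 2 other filters on low counts (none, and 1 CPM in 3 libraries), other libraries in the fit, a block for replicate number, and each library left out in turn. From the fixed lists, at most 3 rising and 3 falling genes a list and comparison were named, by size of change at a mean of at least 1 CPM in either group. NOTCH4 and PECAM1 are not analysed here. TIE1, VWF, CDH5 and the markers named for a low level fall outside that rule and were named after their values were seen. No 2 libraries held identical values.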

Additional observations from a re-analysis of the deposited data

Results flagged for a closer look

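These differences between 2 groups' effects passed the edgeR test of the difference itself, at a Benjamini-Hochberg adjusted p under 0.05. In 5637 the drug effect in NR minus that in parental cells was 0.66 for DLL1 (edgeR adjusted p = 0.0092) and -0.69 for JAG1 (edgeR adjusted p = 5.3e-06). In OVCAR8 it was -0.93 for JAG1 (edgeR adjusted p = 0.016) and -1.87 for HEY1 (edgeR adjusted p = 0.002). JAG1 therefore responded less positively to neratinib in NR than in parental cells of both lines, from a fall in NR 5637 and from a rise in parental OVCAR8.

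Between the lines, the drug effect on JAG1 in parental cells differed by 0.96 (OVCAR8 minus 5637, edgeR adjusted p = 5.4e-05). The change from parental to NR control cells differed by 0.84 for JAG1 (edgeR adjusted p = 6.4e-05), 1.95 for JAG2 (edgeR adjusted p = 4.6e-08), 1.25 for NOTCH1 (edgeR adjusted p = 1.4e-04) and 2.82 for NOTCH3 (edgeR adjusted p = 9.7e-11). For NOTCH3 the change was a fall in 5637 and a rise in OVCAR8.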

How the results depend on the processing

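The 114 tested results of the 10 genes were recomputed 1752 times under the alternatives, and 1684 kept direction and side of the threshold, 30 lost and 37 gained a call, and 1 reversed. The reversal was NOTCH2 on neratinib in parental OVCAR8, at -0.17 without parental control replicate 2 and 0.13 with all libraries (range leaving out any 1 library, -0.17 to 0.32). Of values given without a test, the change of ROBO4 on neratinib in parental 5637 was 0.89, and -0.012 to 2.67 leaving out any 1 library. That of DLL4 in the parental drug effect between the lines was -0.23, and -0.51 to 0.17. Neratinib in NR 5637 called 4 of the 8 other genes, and 2 with DESeq2 size factors, with 6 libraries or with all 24 (2 to 5 leaving out any 1 library). In OVCAR8, neratinib in parental cells called 6 of the 10 without parental control replicate 2 in place of 2. Neratinib in NR cells called 0, and 2 with DESeq2, 1 with no filter, 4 with 6 libraries, 1 with all 24 libraries and 4 without parental control replicate 2. NR against parental control cells called 3, and 1 with 6 libraries. NR against parental cells on neratinib called 4, and 2 without parental neratinib replicate 2 or without NR neratinib replicate 1. The difference in parental drug effect between the lines called 1, and 3 without parental control replicate 2.

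Counts over all genes moved too. With all 24 libraries the 5637 difference in drug effect called 1459 genes in place of 2539. In OVCAR8, neratinib in parental cells called 5868 genes, 2865 with 6 libraries and 9117 without parental control replicate 2. Neratinib in NR cells called 251, 770 with DESeq2, 3641 with 6 libraries, 488 with all 24, 3950 without that library and 43 to 74 leaving out any of its own 6. NR against parental control cells called 1779, 490 with 6 libraries, 2884 with all 24, 4225 without that library and 993 to 1122 leaving out an NR library. On neratinib this was 5596, 10401 with 6 libraries and 10286 without that library. The OVCAR8 difference in drug effect called 1595, 2456 with DESeq2, 2436 with all 24, 6076 without that library and 790 to 994 without any of 9 others. The parental drug effect between lines called 2083, and 3869 without that library. The cause was not tested.

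No pairing of the samples by replicate number was detected. Deviations of same-numbered libraries correlated above 0.1 in 3 of 18 pairs of 5637 (-0.338 to 0.235) and 4 of 18 of OVCAR8 (-0.195 to 0.179). The fit with a replicate block left the counts of the 10 genes called within 1.5 times, called 98 in place of 251 genes for neratinib in NR OVCAR8, and did not call HES1 in NR 5637 (0.17, edgeR adjusted p = 0.068) or ROBO4 in OVCAR8 (0.41, edgeR adjusted p = 0.059).

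Shares without the length correction placed NOTCH2 (51.4%) above NOTCH1 (40.6%) in NR control 5637. By Spearman correlation, 0 of the 5 genes most like DLL4 and 1 of the 5 most like ROBO4 were shared with those named. Scaling by library size alone moved the median change of all genes on neratinib in NR 5637 from 0.00 to 0.12. Low counts limit DLL4 and ROBO4 in parental 5637, and DLL1 in OVCAR8. They also limit DLL4 in OVCAR8, with 11 to 42 counts a library, and HEY1 in 5637 control libraries, with 12 to 32.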
